A study of Rattus norvegicus with 9 samples.

Results

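Fatty acid oxidation and ketone body genes were followed in 9 libraries of whole-liver RNA from rats, 3 in each of 3 groups. The 31 genes were taken by name: the carnitine shuttle, acyl-CoA synthetases and thioesterases, the mitochondrial and peroxisomal enzymes of β-oxidation, 2 ketone body enzymes, and the regulators Ppara, Fgf21 and Pdk4. All 31 matched a row among the 40154 gene rows, Acaa1a through its older symbol Acaa1, and 30 entered the test with 11124 genes in all. Acot1, a cytosolic thioesterase, had 0 or 1 read in each library and was not tested. The rats were wild-type Sprague-Dawley animals aged 5 months. The normal rats had been given neither the hepatotoxin CCl4 nor an injection. The PBS and HepLPC groups were cirrhotic rats, injected with phosphate-buffered saline or with HepLPC, rat hepatocyte-derived cells resembling liver progenitors. The labels used here give no dose, route or interval for CCl4 or for the cells. They also do not say whether each library is a separate animal, so the p-values measure the spread between these libraries, which may in part be technical. Donor and host are the same species, and transcripts of any remaining donor cells cannot be told apart from those of the host.

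Fatty acids are activated to acyl-CoA by synthetases such as Acsl1, passed into mitochondria on carnitine by Cpt1a, Slc25a20 and Cpt2, and shortened by repeated oxidation. Peroxisomes carry out the first rounds for very long chains. In the fasting liver the acetyl-CoA so made is turned into ketone bodies for other organs, and the nuclear receptor PPAR-alpha, encoded by Ppara, activates many genes of the route. PPAR-alpha binds DNA as a pair with RXR at direct repeats of a short half-site with 1 base between them.

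Stretches resembling that repeat were looked for in the promoter windows of the members, and the 4 closest are shown as the sequence context for a receptor that is itself a member. The motif searched was AGGTCANAGGTCA on both strands with at most 2 mismatches, in windows from 250 bases before to 50 bases after the annotated start (RefSeq, rat assembly GRCr8). A window was at hand for 28 of the 31 members. Each line gives 30 bases 5′ to 3′ on the gene's own strand, with the 13 bases of the match in capitals.
Acadvl, chr10:55236701-55236730, minus strand, 1 mismatch: gggagaagAGGTCAGTGGTCAaggcttcag
Slc25a20, chr8:118243580-118243609, plus strand, 2 mismatches: cttaatgtAGGTGAAAGGTCGgtgtagccg
Echs1, chr1:204333640-204333669, minus strand, 2 mismatches: ccgctaaaAGACCTCTGATCTgatcttcct
Etfa, chr8:64788098-64788127, minus strand, 2 mismatches: gcacacccTTACCTTTGCCCTactcccaag
In Echs1 and Etfa the capitals are the motif read on the opposite strand. Such a match was present in 4 of 28 member windows (14.29%), in 1263 of 33469 promoter windows of the whole table (3.774%) and in 273 of 8883 windows of tested genes (3.073%). An exact match was present in 0 of the 28 and in 18 of the 33469. These are letters in a window, not measured binding sites. The 5 members that fell in PBS livers, given below, all had a window, and 0 of the 5 held such a match.

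Levels are given as RPKM, reads scaled to the length of the gene model and to the size of the library, and tests were run with limma on log2(RPKM + 1), adjusted by Benjamini-Hochberg over the 11124 genes. Depth was 17.4 to 21.8 M reads per library. PBS replicate 1 and HepLPC replicate 2 stood apart from the other libraries: across all tested genes their deviations from their group means correlated with each other at 0.61. The Spearman correlation of those deviations with gene length was -0.56 and -0.53. Liver identity was present throughout, since 12 of 12 hepatocyte markers reached the test. Their summed RPKM was 90684 to 108674 in normal, 84798 to 94532 in PBS and 93490 to 106328 in HepLPC livers. Most of each sum was Alb, at 47139 to 68724 RPKM. Of the 12, 0 were called in any comparison, which does not show that each was constant. In PBS against normal, Ttr was at -0.57 without overlap (limma adjusted p = 0.201) and Apoa1 at 1.22 with overlap (adjusted p = 0.117). Markers of other cell types differed between the groups. The cholangiocyte markers summed to 8.93 to 10.8 RPKM in normal, 54.2 to 187 in PBS and 10.9 to 20.4 in HepLPC libraries, with 8 of 8 tested members higher in PBS than normal and 8 of 8 lower in HepLPC than PBS. Of these 8, Sox9, Prom1, Cldn4 and Cldn7 reached the filter of at least 1 RPKM in 3 libraries only through the PBS group, where they are high. The stellate cell and myofibroblast markers summed to 33.9 to 36.6, 99.2 to 158 and 61.8 to 77.8 RPKM (7 of 9 higher in PBS, 2 of 9 lower in HepLPC than PBS; Col1a1 and Lum needed the PBS libraries to reach the filter), and macrophage markers to 125 to 159, 254 to 360 and 140 to 200 (2 of 8 higher, then 2 of 8 lower). The part of these cells in the results that follow was not tested, and in whole tissue fewer hepatocytes cannot be told apart from less RNA per hepatocyte. Endothelial markers (1 of 6) and adipocyte markers (1 of 2) had 1 gene each higher in PBS than normal and the 3 tested lymphocyte markers none. Over all tested genes, 10.4% were called higher in PBS than normal and 2.93% lower in HepLPC than PBS. Muscle and pancreatic acinar markers did not reach the test, with Actc1, Myl2, Prss1, Pnlip and Amy2a3 at 0 in every library, as were the adipocyte genes Plin1 and Lep.

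The level of the members in normal liver spanned more than the differences between groups. Acsl1, the long-chain acyl-CoA synthetase, was the highest at 493 ± 2.22 RPKM (SD, n = 3). It was followed by the medium-chain dehydrogenase Acadm (330 ± 9.33) and the mitochondrial thiolase Acaa2 (329 ± 50.1), which did not differ from each other beyond their spread. Electron transfer flavoprotein subunits Etfb (201 ± 17.1) and Etfa (192 ± 14.02), the long-chain dehydrogenase Acadl (188 ± 28.97), the peroxisomal thiolase Acaa1a (188 ± 29.6) and the peroxisomal bifunctional enzyme Hsd17b4 (174 ± 11.4) formed the next group, each within the spread of its neighbour. At the lower end were Ppara (7.77 ± 1.90), the mitochondrial thioesterase Acot2 (7.41 ± 0.582), the hormone Fgf21 (2.94 ± 1.22) and the short-chain enoyl-CoA hydratase Echs1 (2.24 ± 0.348). Echs1 was listed at 1.32 to 2.61 RPKM in all 9 libraries, far under the enzymes that act before and after it in the same cycle. The annotation behind the rows is uncertain, and this level is given only as listed.

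**Figure D1:**
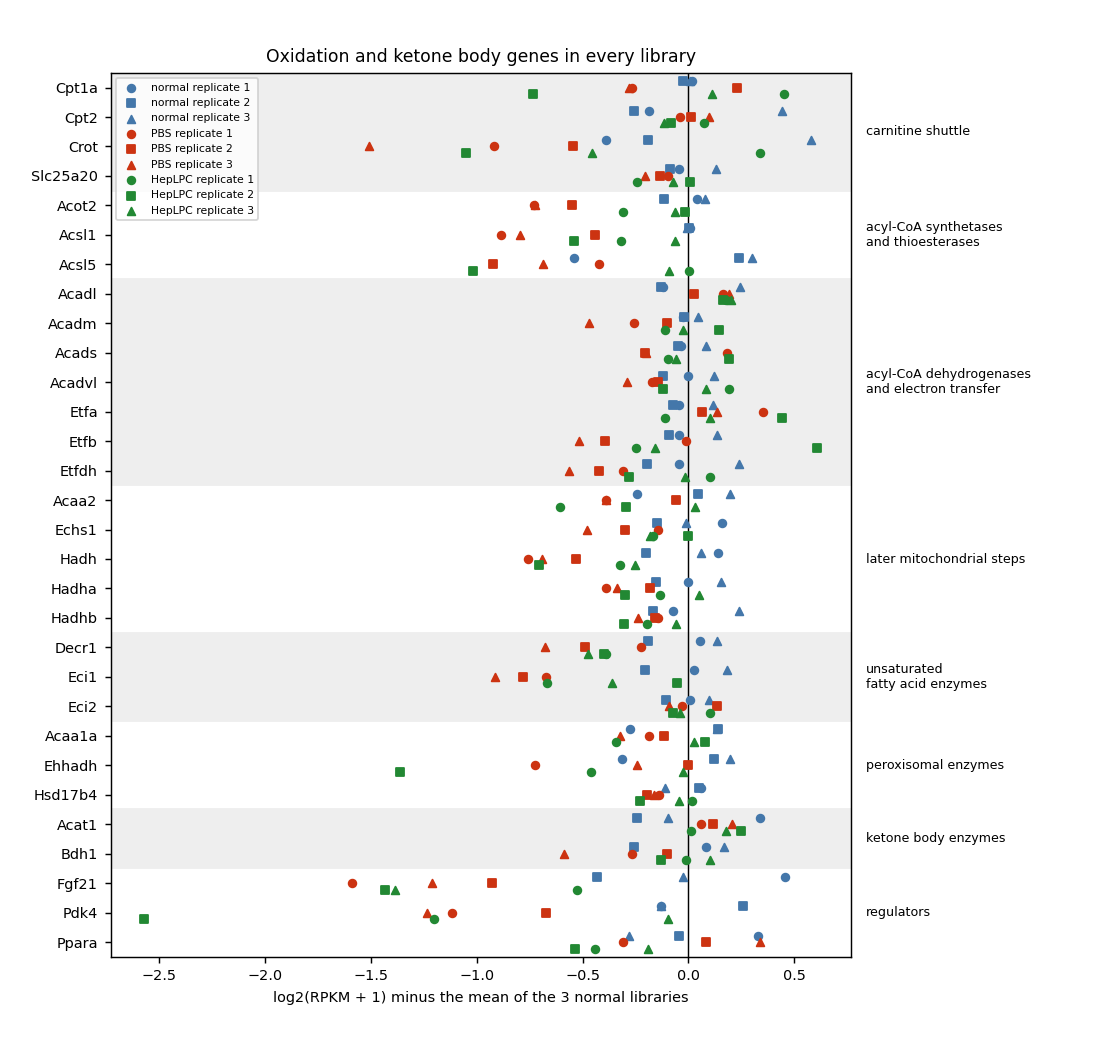
Each row is 1 of the 30 tested genes, ordered by role, and each point is 1 library, coloured by group and shaped by replicate number. The x axis is log2(RPKM + 1) minus the mean of the 3 normal libraries. PBS points lie left of 0 for most genes, and PBS replicate 3 is the lowest of the 9 libraries for 9 genes. HepLPC replicate 2 is the lowest for 7 genes, among them Pdk4, Ehhadh and Cpt1a.

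The first comparison, PBS against normal liver, gives the state of these genes in cirrhotic liver without cells. Among the 30 members, 5 fell, 0 rose and 25 did not pass the test. The 5 were Acsl1, Acot2, Hadh, Eci1 and Fgf21, of which Fgf21 reached the filter on low values only with the normal libraries, where it is high. The fall was to 0.571 to 0.628 of the normal mean for the 4 enzymes and to 0.218 for Fgf21. Of all tested genes, 0.944% were called lower and 10.4% were called higher. The median log2 difference of the members was -0.29, beside 0.18 over all tested genes, and 24 of 30 members were below 0, beside 23.9% of all genes. At an unadjusted p under 0.05, 8 of 30 were lower, beside 3.26% of all genes. After median-of-ratios rescaling, which brings the median of all genes to -0.01, the members' median was -0.52, 30 of 30 were below 0 and 7 were called. Over all genes the calls were 1157 higher and 105 lower, and 566 and 216 after rescaling. The number of calls changed when single libraries were left out, among the members and over all genes. Members called were 5 with all libraries, 0 without normal replicate 3 or without PBS replicate 3, and 1 without normal replicate 1. They were 4 without normal replicate 2, and 3 without PBS replicate 1 or PBS replicate 2. Over all genes, 105 were called lower with all libraries, 50 without normal replicate 3 and 30 without PBS replicate 3. The number was 46 without normal replicate 1, 41 without normal replicate 2, 86 without PBS replicate 1 and 89 without PBS replicate 2. With both PBS replicate 1 and HepLPC replicate 2 left out, 9 members were called. Over all 10822 genes then tested, 265 were called lower and 2688 higher.

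Groups that did not overlap were more frequent than calls. In 14 of 30 members every PBS library was below every normal library, and in 0 every PBS library was above. Over all tested genes these shares were 4.92% and 32.7%. Beyond the 5 that fell, the 14 held Slc25a20 and Crot of the carnitine routes, Acadvl, Acadm and Etfdh of the dehydrogenase step, Hadha, Hsd17b4, Decr1 and Pdk4. None of these 9 passed the test with adjustment.

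**Figure D2:**
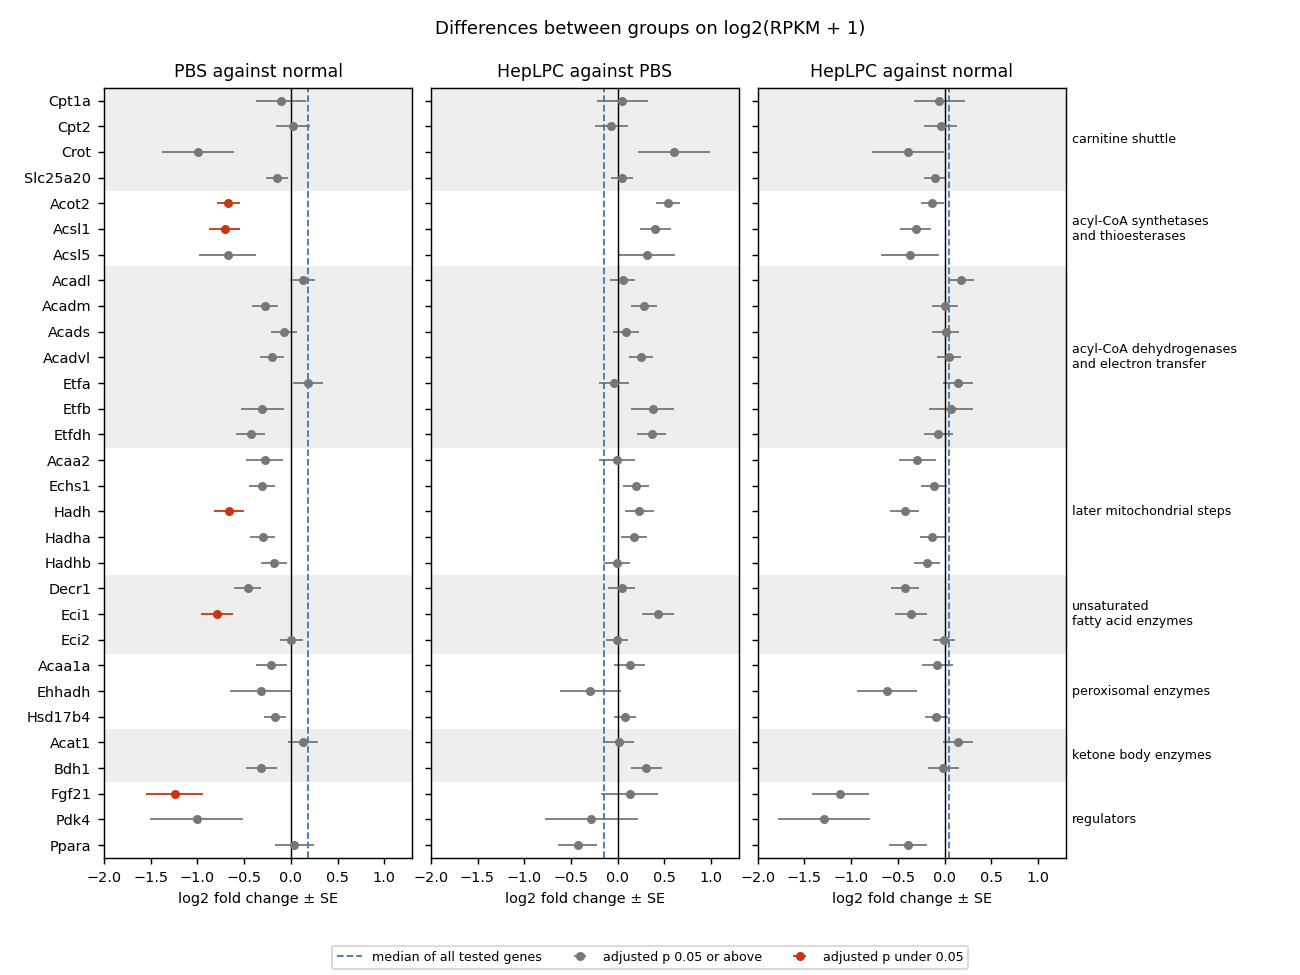
Each panel is 1 of the 3 comparisons, each row 1 tested gene, and each point its log2 difference of mean log2(RPKM + 1) with its standard error from limma. Red points are called, the dashed line is the median of all tested genes, and the 5 red points all lie below 0 in the PBS against normal panel.

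Fatty acids are activated by synthetases and released again by thioesterases, and 2 of the 3 tested members of this role fell. Acsl1 joins long-chain fatty acids to coenzyme A and had the highest level of the members in normal liver. Its RPKM was 495, 493 and 490 in the normal libraries, 266, 363 and 283 in the PBS libraries and 395, 338 and 472 in the HepLPC libraries. The normal libraries were nearly alike and lay above all others, and PBS and HepLPC overlapped. Acsl1 fell in PBS livers by 0.71 on the log2 scale (SE 0.17, limma adjusted p = 0.0256), a call that was lost in 7 of 21 alternatives. HepLPC livers were 0.40 above PBS (SE 0.17, adjusted p = 0.276), 0.31 under normal (log2 difference -0.31, adjusted p = 0.631), and neither difference passed the test.

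Acot2 releases free fatty acids from acyl-CoA inside mitochondria and was low in RPKM but steady between replicates. It was at 7.63, 6.75 and 7.85 RPKM in normal, 4.06, 4.74 and 4.09 in PBS, and 5.78, 7.30 and 7.03 in HepLPC libraries. The PBS values lay below the other 2 groups without overlap. Acot2 fell in PBS livers by 0.67 on the log2 scale (SE 0.13, adjusted p = 0.0104), and the call was lost in 2 of 21 alternatives, those without normal replicate 3 and without PBS replicate 3. In HepLPC livers it was 0.54 above PBS (SE 0.13), with an adjusted p of 0.0558 that narrowly missed the threshold. Rescaling and quantile normalization each brought it under the threshold. HepLPC and normal livers overlapped, with a log2 difference of -0.13 (adjusted p = 0.819). Acot1, of the same family, had 0 or 1 read in each library, and how any reads shared with Acot2 were counted is not known.

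Acsl5, a second long-chain synthetase, varied widely within groups. Its RPKM was 93.7, 162 and 169 in normal, 102, 71.6 and 84.5 in PBS, and 137, 67.1 and 128 in HepLPC libraries. The log2 difference between PBS and normal was -0.68 (SE 0.31, adjusted p = 0.191), as large as that of Acot2, but PBS replicate 1 lay above normal replicate 1.

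None of the 4 members of the carnitine shuttle passed the test in any comparison. Cpt1a makes acylcarnitines at the outer mitochondrial membrane, the step that malonyl-CoA inhibits. It was at 30.9, 29.98 and 30.7 RPKM in normal, 25.2, 36.0 and 24.9 in PBS, and 42.1, 17.9 and 33.0 in HepLPC libraries. The normal libraries were again nearly alike, while the HepLPC libraries held both the highest and the lowest of the 9 values. The PBS against normal difference of Cpt1a was -0.11 on the log2 scale (SE 0.27, adjusted p = 0.837).

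Cpt2, which turns acylcarnitine back into acyl-CoA inside mitochondria, had a log2 difference of 0.02 (adjusted p = 0.947). Slc25a20, the carrier across the inner membrane, was at 57.9 to 67.6 RPKM in normal and 53.3 to 57.5 in PBS libraries. Those ranges did not overlap, yet the difference was small (-0.15, SE 0.12, adjusted p = 0.471). Crot transfers medium chains made in peroxisomes to carnitine. Its RPKM was 32.9, 37.9 and 65.3 in normal, 22.5, 29.4 and 14.6 in PBS, and 55.2, 20.4 and 31.4 in HepLPC libraries. The PBS difference of Crot was -0.99 (SE 0.39, adjusted p = 0.132), one of the largest in the set, with a spread to match.

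The first oxidation of each round is made by Acadvl, Acadl, Acadm or Acads, from very long to short chains, and the electrons pass through the flavoprotein Etfa/Etfb to Etfdh and on to the respiratory chain. Of these 7 genes 0 were called in PBS against normal, and 5 were below 0. Acadm was at 323, 325 and 340 RPKM in normal, 275, 307 and 238 in PBS, and 305, 364 and 324 in HepLPC libraries. PBS lay below normal without overlap, by 0.28 on the log2 scale (log2 difference -0.28, SE 0.14, adjusted p = 0.227).

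Etfdh had the largest difference of the 7. It was at 110, 99.3 and 135 RPKM in normal, 91.9, 84.7 and 76.8 in PBS, and 122, 93.6 and 112 in HepLPC libraries. PBS lay below both other groups, with a log2 difference of -0.43 from normal (SE 0.16, adjusted p = 0.111) and of 0.37 in HepLPC against PBS (SE 0.16, adjusted p = 0.289). Acadvl showed the same order with smaller differences, -0.20 (adjusted p = 0.344) and 0.25 (adjusted p = 0.378). Acadl (0.13) and Etfa (0.18) were above 0 in PBS against normal, with adjusted p of 0.582 and 0.508, and Acads was at -0.07 (adjusted p = 0.774). Etfb, the other flavoprotein subunit, was at -0.31 (adjusted p = 0.434), and HepLPC replicate 2 held its highest value, 306 RPKM, beside 169 and 180 in the other HepLPC libraries.

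Hydration, the second oxidation and thiolysis are made by the trifunctional protein Hadha/Hadhb for long chains and by Echs1, Hadh and Acaa2 for shorter ones. All 5 were below 0 in PBS against normal, and 1 of 5 fell. That gene, Hadh, oxidises 3-hydroxyacyl-CoA of medium and short chains. Its RPKM was 169, 133 and 160 in normal, 90.2, 106 and 94.4 in PBS, and 122, 93.6 and 128 in HepLPC libraries. Both injected groups lay below every normal library. Hadh fell in PBS livers by 0.66 on the log2 scale (SE 0.16, adjusted p = 0.0269), lost in 7 of 21 alternatives. The HepLPC against normal difference was -0.43 (SE 0.16, adjusted p = 0.443).

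Hadha was at 102, 91.4 and 114 RPKM in normal and 77.6, 89.7 and 80.4 in PBS libraries, below normal by 0.30 on the log2 scale without overlap (log2 difference -0.30, adjusted p = 0.191). Hadhb, its partner in the same protein, was at -0.18 (adjusted p = 0.435), with overlap. The pair start head to head in RefSeq: the promoter window of Hadha spans chr6:31907551-31907850 on the plus strand and that of Hadhb chr6:31907451-31907750 on the minus strand. Echs1 (-0.31) and Acaa2 (-0.28) had adjusted p of 0.188 and 0.395.

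Unsaturated fatty acids need further enzymes: Eci1 and Eci2 shift double bonds and Decr1 removes them by reduction. Eci1 was at 94.1, 80.2 and 105 RPKM in normal, 57.6, 53.3 and 48.6 in PBS, and 57.9, 89.1 and 71.9 in HepLPC libraries. The PBS values lay below every library of the other 2 groups, and HepLPC overlapped normal. Eci1 fell in PBS livers by 0.79 on the log2 scale (SE 0.17, adjusted p = 0.0195), lost in 5 of 21 alternatives, and was 0.43 higher in HepLPC than PBS livers without passing the test (SE 0.17, adjusted p = 0.258). Eci2, an isomerase found in peroxisomes and mitochondria, had one of the smallest differences, at 84.0 to 97.0 RPKM in normal and 84.9 to 99.6 in PBS livers (log2 difference 0.01, SE 0.12, adjusted p = 0.983).

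Decr1 was at 153, 129 and 162 RPKM in normal, 126, 105 and 91.6 in PBS, and 112, 111 and 106 in HepLPC libraries. Both injected groups lay below normal. The differences from normal were -0.46 in PBS (SE 0.15, adjusted p = 0.0757) and -0.42 in HepLPC livers (SE 0.15, adjusted p = 0.400), and HepLPC differed from PBS by 0.04 (adjusted p = 0.899).

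In peroxisomes, Ehhadh and Hsd17b4 each carry out the middle steps of oxidation, and Acaa1a the last. All 3 were below 0 in PBS against normal and 0 were called. Hsd17b4 was the steadiest member, with a within-group SD of 0.09 on the log2 scale, and lay at 161 to 181 RPKM in normal and 151 to 158 in PBS libraries (log2 difference -0.17, adjusted p = 0.411). Ehhadh was at 103, 140 and 147 RPKM in normal, 77.3, 128 and 108 in PBS, and 93.1, 49.3 and 126 in HepLPC libraries. Its groups overlapped, and HepLPC replicate 2 was far below the rest (PBS against normal -0.32, SE 0.33, adjusted p = 0.566). Acaa1a was at -0.21 (adjusted p = 0.461).

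Of the ketone body enzymes, Acat1 condenses acetyl-CoA units and Bdh1 interconverts the ketone bodies acetoacetate and 3-hydroxybutyrate. Neither passed the test. Acat1 was at 57.8 to 86.8 RPKM in normal and 71.4 to 79.2 in PBS libraries (0.13, adjusted p = 0.645). Bdh1 was at 94.8 to 128 and 75.2 to 106 RPKM (-0.32, SE 0.17, adjusted p = 0.254).

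Ppara itself was at 9.84, 7.37 and 6.09 RPKM in normal, 5.97, 8.15 and 9.91 in PBS, and 5.35, 4.95 and 6.55 in HepLPC libraries. Normal and PBS overlapped fully (0.04, SE 0.21, adjusted p = 0.928). The HepLPC values were at the low end, by 0.43 under PBS on the log2 scale (log2 difference -0.43, SE 0.21, adjusted p = 0.350).

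Fgf21 encodes a hormone that the liver releases in fasting and under stress, and is a known target of PPAR-alpha. Its RPKM was 4.24, 1.83 and 2.75 in normal, 0.268, 1.01 and 0.646 in PBS, and 1.65, 0.412 and 0.458 in HepLPC libraries. Every library of both injected groups lay below every normal library. Fgf21 fell in PBS livers by 1.24 on the log2 scale (SE 0.30, adjusted p = 0.0291), lost in 7 of 20 alternatives, and HepLPC livers were at -1.12 from normal (SE 0.30, adjusted p = 0.276). These values rest on 3 to 53 reads per library, and 5 libraries reached the minimum of 1 RPKM: the 3 normal ones, 1 PBS and 1 HepLPC. Fgf21 therefore passed the filter on low values only through the group where it is highest, and its call is no support for a change in the members as a set. Without a filter on low values its adjusted p was 0.058, and with voom on the recovered reads 0.0541.

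Pdk4 inhibits pyruvate dehydrogenase and so spares glucose when fatty acids are burned. It was at 38.8, 50.9 and 38.7 RPKM in normal, 19.0, 26.2 and 17.4 in PBS, and 17.9, 6.31 and 39.6 in HepLPC libraries. PBS lay below normal without overlap, at 0.488 of the normal mean, but the HepLPC libraries spread over the whole range. With the shared estimate of spread Pdk4 did not pass (-1.01, SE 0.50, adjusted p = 0.226). It was called lower when only the normal and PBS groups were fitted, or when HepLPC replicate 2 was left out. No other alternative called it, nor did leaving out PBS replicate 1 and HepLPC replicate 2 together.

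**Figure D3:**
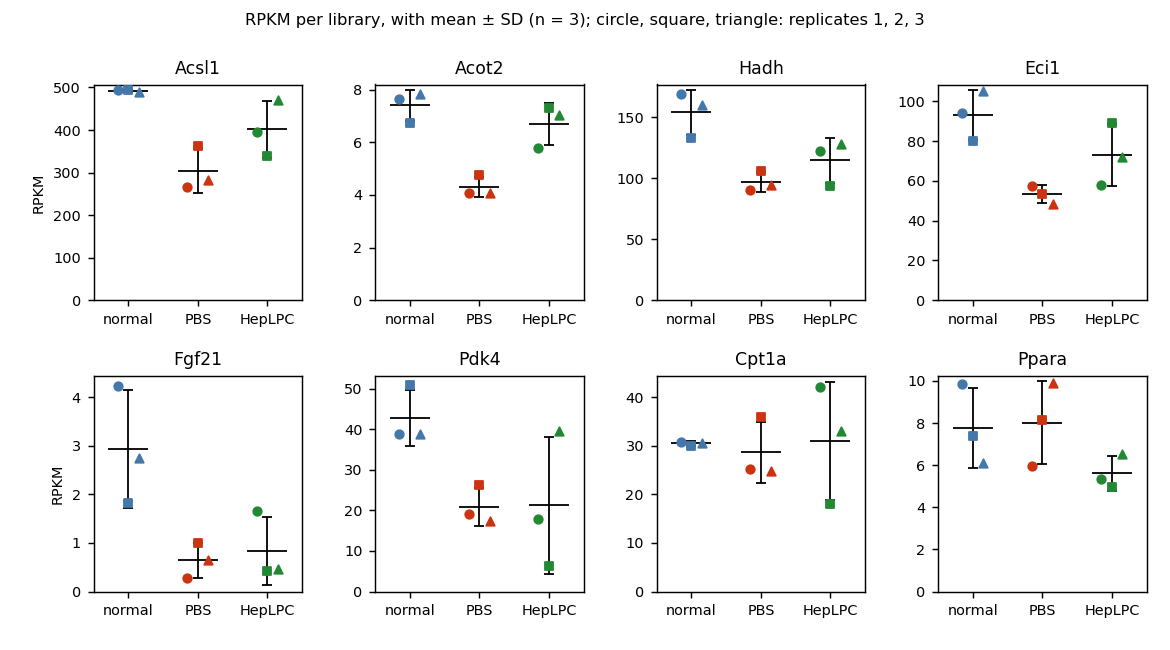
Each panel is 1 gene, with RPKM from 0 on the y axis and the 3 libraries of each group as points, and the horizontal bars are group means with SD. Acot2 and Eci1 are lowest in all 3 PBS libraries, Fgf21 and Hadh are highest in all 3 normal libraries, and the HepLPC libraries of Pdk4 and Cpt1a are widely spread.

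The second comparison, HepLPC against PBS livers, asks how cirrhotic livers that received cells differed from those that received saline. None of the 30 members passed the test with limma on RPKM, nor with voom on the recovered reads, a count of 0 in both. Over all tested genes 0.135% were called higher and 2.93% lower. At an unadjusted p under 0.05, 4 members were higher (Acot2, Acsl1, Etfdh and Eci1), where 2.1% of all genes were, and 0 were lower, where 14% of all genes were. In 4 members every HepLPC library was above every PBS library (Acot2, Etfdh, Eci1 and Acadvl), where 2.79% of all genes were, and in 0 below, where 15.6% were. Of the 30, 8 were below 0, where 73.9% of all genes were, and the median log2 difference was 0.11, beside -0.14 over all genes. Both comparisons use the same PBS libraries, so they are not independent. Side by side, the log2 differences of PBS against normal and HepLPC against PBS were -0.67 and 0.54 for Acot2, -0.71 and 0.40 for Acsl1, -0.79 and 0.43 for Eci1, -0.66 and 0.23 for Hadh, and -1.24 and 0.13 for Fgf21. These 5 were taken because they were called lower in PBS, which by itself favours an opposite sign in the second comparison. Among members not called, the pairs were -1.01 and -0.28 for Pdk4, -0.99 and 0.60 for Crot, -0.68 and 0.31 for Acsl5, and -0.46 and 0.04 for Decr1.

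The third comparison, HepLPC against normal livers, sets the cirrhotic livers given cells beside untreated livers. Again 0 of 30 members passed the test with limma on RPKM or with voom, and 9 of the 11124 genes did (0.0449% higher and 0.036% lower). At an unadjusted p under 0.05, 4 members were lower (Hadh, Decr1, Fgf21 and Pdk4; 1.98% of all genes) and 0 were higher (7.34% of all genes). In 4 members every HepLPC library was below every normal library (Hadh, Decr1, Acsl1 and Fgf21; 3.51% of all genes). The median of the members was -0.11, beside 0.05 over all genes, and 23 of 30 were below 0, where 40.6% of all genes were.

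Summed over the 31 genes, the members made up 0.616%, 0.606% and 0.687% of the RPKM total of the normal libraries, 0.487%, 0.563% and 0.503% of the PBS libraries, and 0.566%, 0.489% and 0.627% of the HepLPC libraries. The PBS values lay below the normal ones, and HepLPC replicate 2 lay within the PBS range. The means were 0.636% ± 0.0442, 0.518% ± 0.0403 and 0.561% ± 0.0689 (SD, n = 3 each). Acsl1 was the highest member in 7 of the 9 libraries and Acadm in the other 2, PBS replicate 1 and HepLPC replicate 2.

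The 2 libraries that stood apart had the most negative correlations with gene length among the members too. Over the 30 members, the Spearman correlation between gene model length and the deviation from the group mean was -0.48 in HepLPC replicate 2 and -0.32 in PBS replicate 1, and -0.03 to 0.48 in the other 7. The deviations of the 3 libraries of a group sum to 0, so an opposite sign in the others of a group follows from the first. It is given as a description across genes of 1 library, which are not independent. The 7 members lowest in HepLPC replicate 2 (Cpt1a, Hadhb, Ehhadh, Hsd17b4, Acsl5, Ppara and Pdk4) had a median length of 2632 bases, and the 4 highest there (Acadm, Acads, Etfa and Etfb) of 1524.5 bases. With the length trend removed within each library, 13 members were lower in PBS than normal livers. In HepLPC against PBS 2 members, Acot2 and Acsl1, were higher. This alternative was chosen after seeing the data. Over all 11124 genes it called 506 lower in PBS than normal livers, beside 105 without that step. It called 54 genes higher in HepLPC than PBS livers, beside 15 without that step.

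**Figure D4:**
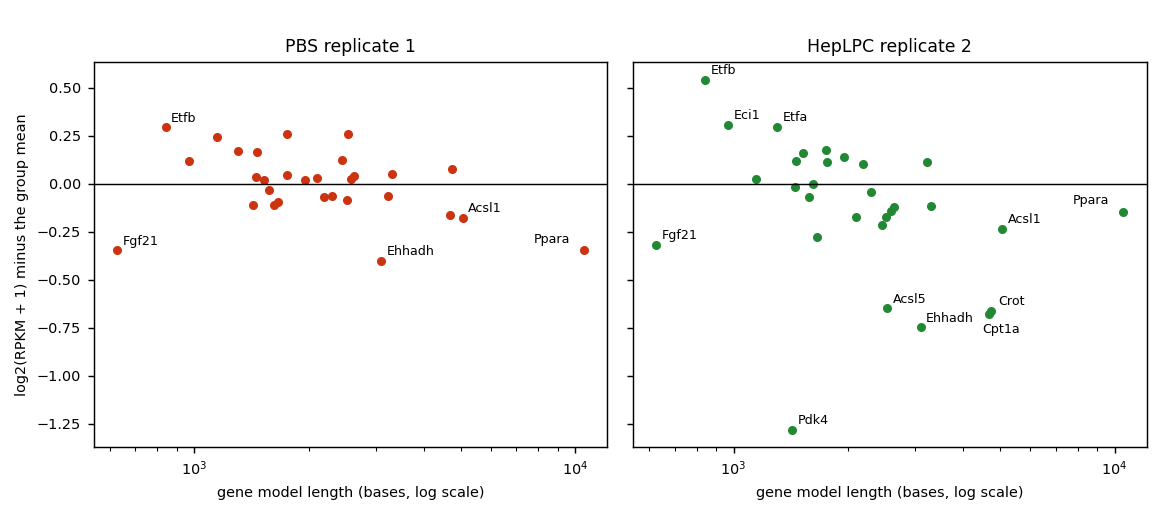
Each point is 1 of the 30 tested genes, in PBS replicate 1 on the left and HepLPC replicate 2 on the right, with gene model length in bases (log scale) on the x axis and log2(RPKM + 1) minus the group mean on the y axis. Short genes such as Etfb lie above 0, long genes such as Cpt1a and Crot lie below 0 in HepLPC replicate 2, and Pdk4 and Fgf21 are low there without being long.

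Other genes of the pathway did not all move with the members. Among 29 tested further oxidation and ketone body enzymes, the median difference in PBS against normal was -0.16, and 2 of the called genes are described here. Over all tested genes, 10.4% were called higher in that comparison and 0.944% lower. Oxct1, the enzyme that lets tissues use ketone bodies and that hepatocytes barely express, rose by 0.85 (adjusted p = 0.022) from 0.364 to 0.690 RPKM in normal to 1.05 to 2.49 in PBS libraries, beside the higher markers of other cell types given above. It reached 1 RPKM only in the 3 PBS libraries, so it entered the test through the group where it is high. Bdh2, a cytosolic dehydrogenase, rose by 1.20 (adjusted p = 0.0143).

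Among 26 tested genes of fatty acid uptake, activation and hydrolysis, 1 fell and 3 rose (median -0.14). The shares over all tested genes were 0.944% called lower and 10.4% called higher. Slc27a2, the transporter and very long chain synthetase of hepatocytes, was at 408, 365 and 349 RPKM in normal, 227, 241 and 215 in PBS, and 288, 283 and 326 in HepLPC libraries. The 3 groups did not overlap. Slc27a2 fell in PBS livers by 0.71 on the log2 scale (SE 0.13, adjusted p = 0.00719), a call lost in 0 of 21 alternatives. The fatty acid receptor Cd36, which macrophages and endothelium also express, rose by 2.09 (adjusted p = 0.021), and Acsm2, a medium-chain synthetase read from the row Acsm2a, rose by 2.5 with groups that overlapped (adjusted p = 0.0438). Slc27a4, another transporter, rose by 0.41 (adjusted p = 0.0459). The calls of Acsm2 and Slc27a4 were lost in 13 and 14 alternatives.

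A list of 24 further tested targets of PPAR-alpha, 1 of them the member Eci2, held 2 that fell and 4 that rose (median -0.27). Of all tested genes, 0.944% were called lower and 10.4% higher. Cyp4a3, a fatty acid ω-hydroxylase, and Gk, which phosphorylates glycerol, fell by 0.88 (adjusted p = 0.0458) and 0.79 (adjusted p = 0.0276). Cyp4a8, of the same family as Cyp4a3, rose by 1.69 (adjusted p = 0.0332), and the electron donor Por by 0.83 (adjusted p = 0.0172). Ucp2, which is also expressed in macrophages, rose by 0.78 (adjusted p = 0.0181). Txnip rose by 0.90 in PBS against normal (adjusted p = 0.0214) and was lower by 0.95 in HepLPC against PBS (log2 difference -0.95, adjusted p = 0.0391), the only gene of these pathway lists called in that comparison. Cyp4a3 has a close paralog in Cyp4a2, and how reads shared by them were counted is not known, so its value is uncertain.

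Of 27 tested regulators of oxidation 1 fell, Pdk1, an isoform of the kinase family of Pdk4, by 0.80 (adjusted p = 0.0148), with PBS values of 12.4 to 12.5 RPKM beside 20.3 to 26.0 in normal libraries (median of the list -0.03). None of 19 peroxisome assembly genes was called (median 0.01). The counts of this paragraph stand beside 0.944% of all tested genes called lower and 10.4% called higher. Of genes that fasting raises 1 of 12 rose (Gadd45b, by 0.62, adjusted p = 0.047), and of genes that feeding raises 2 of 14 fell: the desaturase Scd by 1.56 (adjusted p = 0.0135) and the liver pyruvate kinase Pklr by 0.93 (adjusted p = 0.0192), with a list median of -0.78. In HepLPC against normal livers no gene of these lists was called. The labels do not give the feeding state of the rats.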

How the data were processed

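Liver RNA was sequenced in 9 TruSeq libraries after TRIzol isolation and DNase I treatment, per the labels' protocols. The deposited values are RPKM per gene, per the file headers. HISAT2, StringTie and hg19 are listed in the submitters' processing notes. Since the rows carry rat symbols, build and annotation are uncertain, and how reads of paralogs were handled was not given there. Groups and replicates came from sample titles.

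From these values, log2(RPKM + 1) was tested for genes with at least 1 RPKM in at least 3 libraries with limma 3.58.1 in R 4.3.3 (lmFit, eBayes with trend, 2-sided). All 9 libraries entered 1 model with 3 group terms and 6 residual degrees of freedom, and a gene was called below 0.05 after Benjamini-Hochberg adjustment. Fold changes on this scale understate changes of low genes. Whole reads were recovered from the RPKM, within 0.01 read, for 20956 of 20959 genes above 0 in at least 3 libraries (99.99%), and were used with voom as an alternative. No count table was used. The procedure was tested on simulated data. The members and the gene lists were chosen with earlier results of these data known. Named are every called member, the regulators, Acsl1, Cpt1a, and at most 6 called genes per list. Other members are given to complete each role. In all 21 alternatives were run, 20 of them planned. A called gene of the list of further enzymes is not reported here.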

Additional observations from a re-analysis of the deposited data

How the results depend on the processing

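For PBS against normal, 5 members were called, and 3 with quantile normalization, 9 without PBS replicate 1 and HepLPC replicate 2 together, and 13 with the length trend removed within each library, an alternative chosen after seeing the data. Over all genes, 105, 222, 265 and 506 were called lower in the same order. Leaving out 1 library at a time gave 0 to 6 calls, and 30 to 167 called lower over all genes. Deviations of same-numbered libraries correlated at -0.41 to 0.31. This cannot decide whether the numbers pair the libraries, because the deviations of a group sum to 0. In addition, PBS replicate 1 and HepLPC replicate 2 correlated at 0.61. With the replicate number as a block 1 member was called, and over all genes 64 were called lower, beside 105 without the block. The median difference of the members was -0.52 after rescaling by the median of ratios and -0.53 with the length trend removed, and -0.34 to -0.19 without single libraries. For HepLPC against PBS, 1 member was called after rescaling, 1 with quantile normalization and 2 with the length trend removed, and 0 to 0 without single libraries. Over all genes, 21 were called higher after rescaling, 32 with quantile normalization and 54 with the length trend removed. There the median was 0.27 after rescaling, 0.25 with the length trend removed and 0.08 to 0.18 without single libraries. For HepLPC against normal 0 members were called under every alternative, with medians of -0.18 to -0.06 without single libraries. Over single members, 28 values lost and 17 gained a call in PBS against normal, 4 gained one in HepLPC against PBS, and 0 reversed. A reversal was counted only where the main fit or the alternative called the gene, so that 0 leaves out sign changes of uncalled members. After rescaling, members below 0 went from 24 to 30 of 30 in PBS against normal. In HepLPC against PBS they went from 8 to 3. Over all genes, calls in PBS against normal were 1157 higher and 105 lower, and 566 and 216 after rescaling, while in HepLPC against PBS they were 15 and 326, and 21 and 183. Read numbers were low for Fgf21, at 3 to 53 per library, and for Acot1, at 0 or 1.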
